A study of Mus musculus with 6 samples.

Results

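The genes described, among 28601 in the liver table, are 33 markers of T cells, natural killer (NK) cells, B cells and plasma cells. They were chosen by name from textbook knowledge of these lineages, with earlier results of these data known. All 33 were matched by symbol, and all 33 passed the filter on low counts. The RNA came from livers of 6 male mice, 3 with the Cys52Ser substitution in peroxiredoxin 1 (PRDX1 Cys52Ser) and 3 wild type (WT). Peroxiredoxin 1 reduces hydrogen peroxide, and this cysteine is the one that reacts with the peroxide. Every mouse ate CDAHFD, a high-fat diet without choline whose protein is given as amino acids and which causes steatohepatitis and fibrosis in mice, from 8 weeks of age and for 8 weeks by the titles and the design text. The treatment field instead gives 11, 12 and 13 weeks for Cys52Ser replicates 1 to 3 and 8, 9 and 10 weeks for WT replicates 1 to 3; if that field were right, genotype and diet length cannot be told apart. No mice on a standard diet were compared here, and the sources do not say whether the substitution was carried in the germ line or was limited to some cells. The comparison asks which lymphocyte genes differ between Cys52Ser and WT livers on this diet.

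Lymphocytes enter the liver through the sinusoids, and in steatohepatitis cytotoxic T cells, NK cells, B cells and antibody-secreting plasma cells gather beside macrophages. T cells recognise antigen through a receptor that signals through the CD3 chains and the kinases LCK and ZAP70. B cells carry IgM and IgD on the surface, signal through CD79A and CD79B, and may switch to IgG or IgA and become plasma cells. Naive and memory T cells depend on the cytokine IL-7, which they sense with the receptor encoded by Il7r.

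The levels below are CPM, the share of a gene in the counts of its library, scaled by TMM, a method that corrects library size for a few abundant genes that take up much of a library. Values are listed for replicates 1, 2 and 3 of each genotype in turn. Fold changes and p-values came from edgeR's quasi-likelihood test, Cys52Ser over WT, with Benjamini-Hochberg adjustment over 18648 tested genes and a threshold of 0.05. Total counts per library were 56473479 to 73900923 in Cys52Ser and 53318196 to 65465225 in WT. TMM factors were 0.814 to 0.963 in Cys52Ser and 1.05 to 1.21 in WT. Scaling by library totals alone therefore gave all tested genes a median log2 fold change of -0.35, against 0.00 with TMM. Members whose direction turns with that choice are named below. Prdx1 itself had 859, 661 and 819 CPM in Cys52Ser livers, against 864, 920 and 978 CPM in WT livers (log2 fold change -0.24, edgeR adjusted p = 0.421), which does not check the genotypes, since a change of 1 residue is not seen in gene counts.

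Of the 33 genes, 1 passed the threshold, Il7r, which was lower in Cys52Ser livers. No member was called higher by edgeR, while 10 had an unadjusted p below 0.05, and DESeq2 called 2 higher, Gzma and Ighm, and 3 lower, Il7r, Igkc and Jchain. Among all tested genes edgeR called 4.98%, of which 2.52% were higher and 2.46% lower, and 22.4% had an unadjusted p below 0.05, so the members' share of calls was no higher than that of all genes. DESeq2 called 15.3% of the 16343 genes it tested, 8.04% higher and 7.21% lower. The fold changes had a positive sign for 19 members and a negative sign for 14, with a median of 0.09 on the log2 scale, or -0.24 with library totals. Summed over the 33 genes, 97.3 to 113 CPM were found in Cys52Ser livers, against 104 to 113 CPM in WT livers. Cys52Ser replicate 1 gave the highest value for 15 of the 33 members, and Cys52Ser replicate 3 the lowest for 10.

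The genes were scarce in whole liver. Per length, in FPKM (fragments scaled to transcript length and library size), Igkc led with means of 21.7 in Cys52Ser and 44.3 in WT. Averaged over the 6 livers, it was followed by Ighm at 6.74, Tcf7 at 2.95, Nkg7 at 2.93, Cd79b at 2.29, Jchain at 2.22 and Zap70 at 2.16. The lowest were Foxp3 at 0.080, Pax5 at 0.058 and Lef1 at 0.052. Counts per library ran from 6 for Foxp3 to 1756 for Igkc, and genes with few counts have wide intervals. In bulk tissue, fewer cells of a type and less RNA per cell cannot be told apart.

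**Figure D1:**
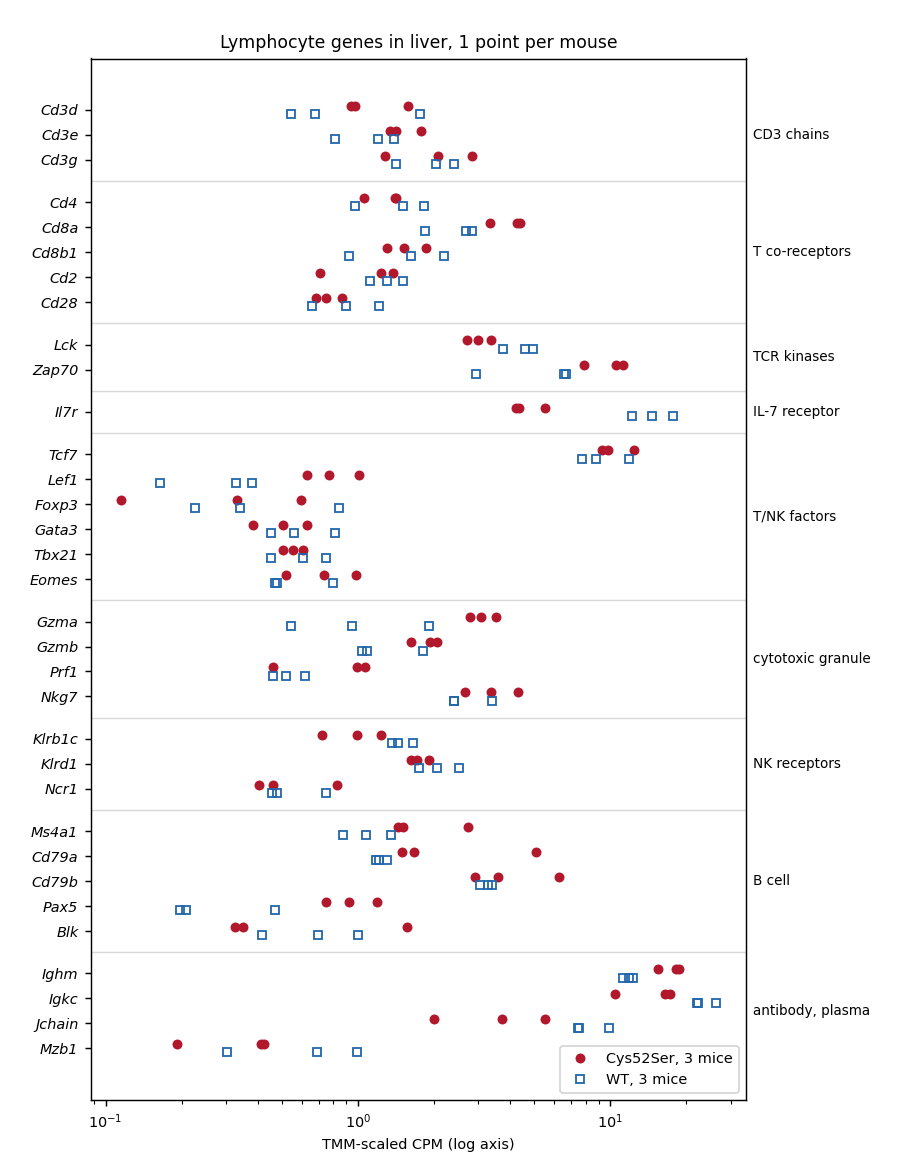
Levels of the 33 lymphocyte genes in TMM-scaled CPM on a log axis, 1 point per mouse, with Cys52Ser above WT for each gene and genes grouped by role. The Il7r points of the 3 Cys52Ser livers lie between 4.25 and 5.52, below the WT points between 12.2 and 17.7, while the CD3 chains and most other genes overlap.

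Il7r encodes the alpha chain of the IL-7 receptor, which naive and memory T cells and innate lymphoid cells carry for survival, and lies on chromosome 15 (GRCm38 chr15:9505788-9530176, minus strand). It had 5.52, 4.34 and 4.25 CPM in Cys52Ser livers, against 17.7, 14.7 and 12.2 CPM in WT livers. All Cys52Ser livers were low, all WT livers were high, and the groups did not overlap. The means were 4.71 ± 0.709 CPM in Cys52Ser and 14.9 ± 2.75 CPM in WT (SD, n = 3 each), a log2 fold change of -1.66 with a 95% interval of -2.12 to -1.20, or 3.15-fold lower (edgeR adjusted p = 0.0168). The deposited FPKM gave 0.786 in Cys52Ser and 3.21 in WT on average. In WT livers the CD3 chains averaged 0.553 (Cd3d), 0.277 (Cd3e) and 0.590 (Cd3g) FPKM. Which cells the Il7r RNA came from was not tested. Il7r was called in 16 of 19 alternative settings, with log2 fold changes of -2.02 to -1.22. The call was lost when Cys52Ser replicate 1 (edgeR adjusted p = 0.0532), Cys52Ser replicate 3 (0.066) or WT replicate 2 (0.0561) was left out. The log2 fold changes were then -1.79, -1.59 and -1.72.

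The sequence at its start is shown because Il7r carries the one call, beside that of Gzma, the granzyme gene with the largest fold change of the cytotoxic group; both were picked after their values were seen. They are taken from RefSeq (build GRCm38.p6, minus strand, printed 5′ to 3′), the Il7r stretch at chr15:9529912-9530040 and the Gzma stretch at chr13:113100982-113101231. The Gzma stretch ends at the base before its RefSeq start. The Il7r stretch is shorter because bases of annotated exon or gene sequence were left out; its last 30 bases, which hold the capitals, lie within the RefSeq gene span, and all of it lies inside the longer Il7r gene model given above. Capitals mark ACTTCC, the other-strand form of the ETS family core GGAAGT, in Il7r, and ACCACA, the other-strand form of the RUNX core TGTGGT, in Gzma.
Il7r: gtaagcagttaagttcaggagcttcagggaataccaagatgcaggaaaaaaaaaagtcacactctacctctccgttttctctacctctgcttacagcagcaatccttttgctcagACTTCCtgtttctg
Gzma: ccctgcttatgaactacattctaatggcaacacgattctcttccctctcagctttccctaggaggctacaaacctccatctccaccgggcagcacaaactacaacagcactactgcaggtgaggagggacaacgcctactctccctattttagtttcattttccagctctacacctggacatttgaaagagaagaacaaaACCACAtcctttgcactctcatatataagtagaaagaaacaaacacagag
ETS and RUNX factors are regulators of lymphocyte genes, and a match is a description of the letters, not a binding site. Of the 33 genes, 22 had a promoter in the table. Searching both strands of the 250 bases before the start in the first listed promoter of each gene, GGAAGT was found in 8 of these 22 genes and in 20.0% of 27025 genes with a promoter, TGTGGT in 7 of 22 and in 14.2%, and the E-box CAGCTG in 2 of 22 and in 12.8%. These motifs do not overlap each other in the stretches printed.

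Other parts of the IL-7 pathway were not called. None of the 9 IL-7 receptor partners passed the edgeR test, and 2 had an unadjusted p below 0.05. With library totals alone 2 were called lower, a scaling under which 14.6% of all tested genes were called lower. The median log2 fold change of the 9 was 0.04, or -0.30 with library totals. Jak1, the kinase that binds the IL-7 receptor alpha chain, had 147 ± 10.4 CPM in Cys52Ser and 139 ± 15.0 CPM in WT (SD, n = 3 each; edgeR adjusted p = 0.749). Il2rg, the shared gamma chain with which the receptor pairs, had 18.7, 13.9 and 14.2 CPM in Cys52Ser livers, against 18.1, 16.7 and 15.5 CPM in WT livers. Crlf2, which pairs with the same alpha chain to sense TSLP, had 11.8, 11.6 and 11.6 CPM in Cys52Ser livers and 19.9, 15.0 and 14.2 CPM in WT livers (edgeR adjusted p = 0.117). Bcl2, a survival gene downstream of IL-7, had a log2 fold change of -0.69 (edgeR adjusted p = 0.072).

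Of the 8 pan-leukocyte markers, 1 was called lower by edgeR. It was Ptprc, encoding the leukocyte antigen CD45, 1.46-fold lower, at 58.4, 46.7 and 49.8 CPM in Cys52Ser livers, against 78.3, 73.0 and 74.3 CPM in WT livers (log2 fold change -0.54, edgeR adjusted p = 0.043). That call was lost whichever of the 6 libraries was left out (edgeR adjusted p = 0.0571 to 0.147). All 8 markers had lower, non-overlapping levels in Cys52Ser livers, beside 15.2% of all tested genes, and their sum was 307 to 409 CPM, against 450 to 550 CPM in WT. Divided by Ptprc within each library, which needs no scaling between libraries, Il7r FPKM was 0.370, 0.363 and 0.333 in Cys52Ser livers, against 0.887, 0.790 and 0.642 in WT livers. Il7r was the one member lower without overlap by this ratio, 14 were higher and 18 overlapped, beside 3.11% lower and 49.5% higher among all tested genes, 52.6% in all. The ratio shows unequal change of the genes in it, not that any of them was constant.

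**Figure D2:**
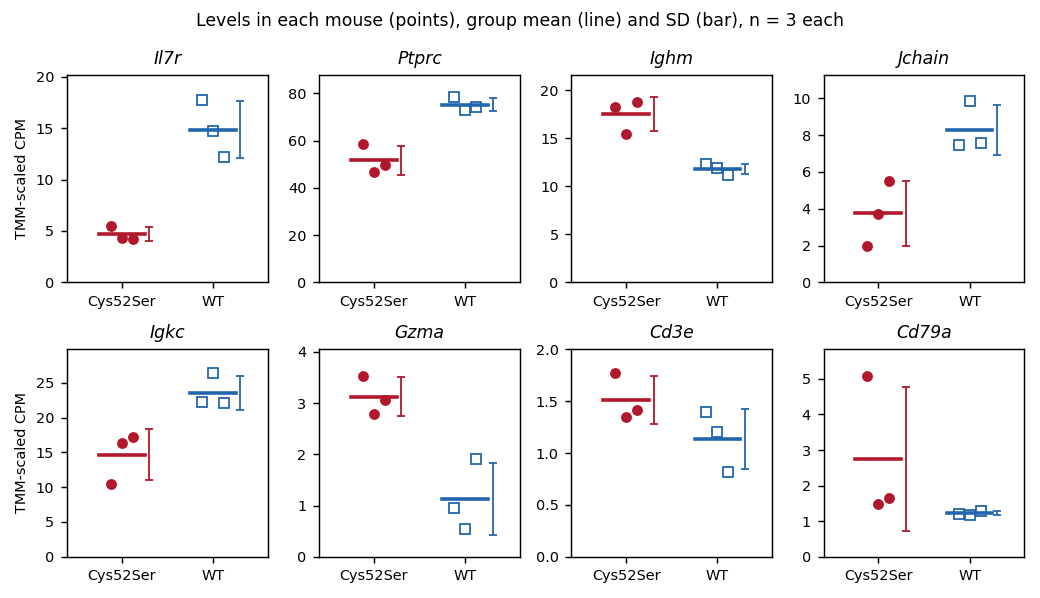
TMM-scaled CPM of 8 genes in each mouse, Cys52Ser left of WT, with points for mice, a line for the mean and a bar for the SD (n = 3 each). Il7r, Ptprc, Jchain and Igkc are lower without overlap in Cys52Ser, Ighm, Gzma and Cd79a are higher without overlap, and Cd3e overlaps.

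The CD3 chains, which carry the T cell receptor signal and mark all T cells, were not called. Cd3e had 1.77, 1.34 and 1.42 CPM in Cys52Ser livers, against 1.39, 1.20 and 0.814 CPM in WT livers (log2 fold change 0.41, 95% interval -0.45 to 1.28, edgeR adjusted p = 0.577). Cd3d had 1.58, 0.939 and 0.976 CPM in Cys52Ser livers, against 1.76, 0.543 and 0.676 CPM in WT livers. Cd3g had 2.85, 2.08 and 1.28 CPM in Cys52Ser livers and 2.04, 1.41 and 2.41 CPM in WT livers. The groups overlapped for all 3 chains, and the signs of the Cd3d and Cd3g log2 fold changes (0.23 and 0.08) turn with library totals. Their summed FPKM was 1.66, 1.24 and 0.914 in Cys52Ser livers, against 2.06, 1.02 and 1.19 in WT livers, where the groups also overlapped.

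Among the co-receptors and costimulators, Cd8a, the co-receptor of cytotoxic T cells, was the one without overlap on CPM. It had 4.39, 4.29 and 3.35 CPM in Cys52Ser livers, against 2.85, 2.68 and 1.84 CPM in WT livers, a log2 fold change of 0.71 (95% interval 0.07 to 1.35, edgeR adjusted p = 0.182), and its FPKM values overlapped. Its partner chain Cd8b1 had 1.87, 1.53 and 1.302 CPM in Cys52Ser livers, against 0.923, 2.20 and 1.63 CPM in WT livers (log2 fold change -0.02, edgeR adjusted p = 0.989), with overlapping groups. Cd4, the co-receptor of helper T cells, had 1.06, 1.42 and 1.40 CPM in Cys52Ser livers and 0.974, 1.83 and 1.51 CPM in WT livers. As a share of Cd8a plus Cd4 FPKM, Cd8a took 82.4%, 77.3% and 72.9% in Cys52Ser livers, against 76.6%, 61.9% and 57.5% in WT livers. Cys52Ser replicate 3 lay below WT replicate 1, and the difference of 12.2 percentage points had an exact two-sided permutation p of 0.2, where 0.1 is the smallest that 3 against 3 mice allow. The adhesion receptor Cd2 and the costimulator Cd28 ranged from 0.681 to 1.38 CPM in Cys52Ser livers and from 0.658 to 1.51 CPM in WT livers, with log2 fold changes of -0.24 and -0.28, and both were lower without overlap on FPKM.

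The receptor-proximal kinases pointed in opposite directions, and neither was called by edgeR. Zap70, which binds the phosphorylated receptor chains, had 10.6, 7.86 and 11.2 CPM in Cys52Ser livers, against 2.95, 6.66 and 6.58 CPM in WT livers (log2 fold change 0.87, edgeR adjusted p = 0.172). WT replicate 1 was far below the rest, and without it the log2 fold change was 0.52. Lck, which phosphorylates those chains, had 3.37, 2.98 and 2.70 CPM in Cys52Ser livers, against 4.62, 4.95 and 3.76 CPM in WT livers (log2 fold change -0.56, edgeR adjusted p = 0.205). It was called in 1 of 19 alternative settings, limma on log2(FPKM + 0.1) (adjusted p = 0.0492), and the adjusted p over all 19 ran to 0.402. On the CPM scale the groups did not overlap for either kinase, whereas on FPKM they overlapped for Zap70.

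Of the transcription factors, Tcf7 and Lef1 act in naive and memory T cells, Foxp3 defines regulatory T cells, Gata3 type 2 helper cells, and Tbx21 and Eomes type 1 and cytotoxic cells. Tcf7 was the most abundant, at 12.4, 9.81 and 9.28 CPM in Cys52Ser livers, against 11.9, 8.80 and 7.75 CPM in WT livers, with overlapping groups. Lef1 had 0.627, 1.01 and 0.766 CPM in Cys52Ser livers, against 0.379, 0.164 and 0.329 CPM in WT livers. Its groups did not overlap on either scale, yet with 10 to 55 counts per library its log2 fold change of 1.45 had a 95% interval of 0.22 to 2.68 (edgeR adjusted p = 0.156). Foxp3 had 0.597, 0.331 and 0.115 CPM in Cys52Ser livers and 0.341, 0.839 and 0.225 CPM in WT livers, a spread within each genotype larger than the difference. Gata3, Tbx21 and Eomes overlapped, at 0.383 to 0.979 CPM in Cys52Ser livers and 0.451 to 0.809 CPM in WT livers, with edgeR adjusted p of 0.723 to 0.916.

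Cytotoxic granule genes, shared by NK cells and cytotoxic T cells, all had positive fold changes, and none was called by edgeR. Gzma, encoding granzyme A, had 3.53, 2.78 and 3.06 CPM in Cys52Ser livers, against 0.949, 0.543 and 1.91 CPM in WT livers. The groups did not overlap on CPM or on FPKM, and the fold change was 2.76-fold higher (log2 1.47, 95% interval 0.35 to 2.58, edgeR adjusted p = 0.125). DESeq2 called it (adjusted p = 0.0177), and over all 19 alternative settings the adjusted p ran from 0.0177 to 0.285. Gzmb, encoding granzyme B, had 2.05, 1.93 and 1.63 CPM in Cys52Ser livers, against 1.04, 1.09 and 1.82 CPM in WT livers, where WT replicate 3 reached the Cys52Ser range. Prf1, the pore-forming perforin, had 1.07, 0.994 and 0.459 CPM in Cys52Ser livers, against 0.620, 0.460 and 0.520 CPM in WT livers. Nkg7, a granule membrane protein, had 4.31, 2.65 and 3.37 CPM in Cys52Ser livers and 2.40, 2.40 and 3.41 CPM in WT livers. The sign of its log2 fold change (0.33) turns with library totals. All 4 genes were highest in Cys52Ser replicate 1. WT replicate 3 was the highest WT liver for Gzma, Gzmb and Nkg7, but not for Prf1.

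Of the 3 NK cell receptors, 2 had negative log2 fold changes and 1, Ncr1, a positive one of 0.02. None was called by edgeR, and 0 had an unadjusted p below 0.05. Klrb1c, encoding the NK1.1 receptor, had 0.719, 1.23 and 0.995 CPM in Cys52Ser livers, against 1.44, 1.36 and 1.65 CPM in WT livers, lower without overlap (log2 fold change -0.60, 95% interval -1.46 to 0.27, edgeR adjusted p = 0.402). Klrd1, the CD94 chain, had 1.71, 1.62 and 1.91 CPM in Cys52Ser livers and 2.52, 1.74 and 2.06 CPM in WT livers. Ncr1, encoding NKp46, a receptor that marks NK cells and some innate lymphoid cells, had 0.826, 0.405 and 0.459 CPM in Cys52Ser livers and 0.455, 0.477 and 0.745 CPM in WT livers. The sum of the 3 receptors was 3.26 to 3.37 CPM in Cys52Ser livers, against 3.58 to 4.45 CPM in WT livers.

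**Figure D3:**
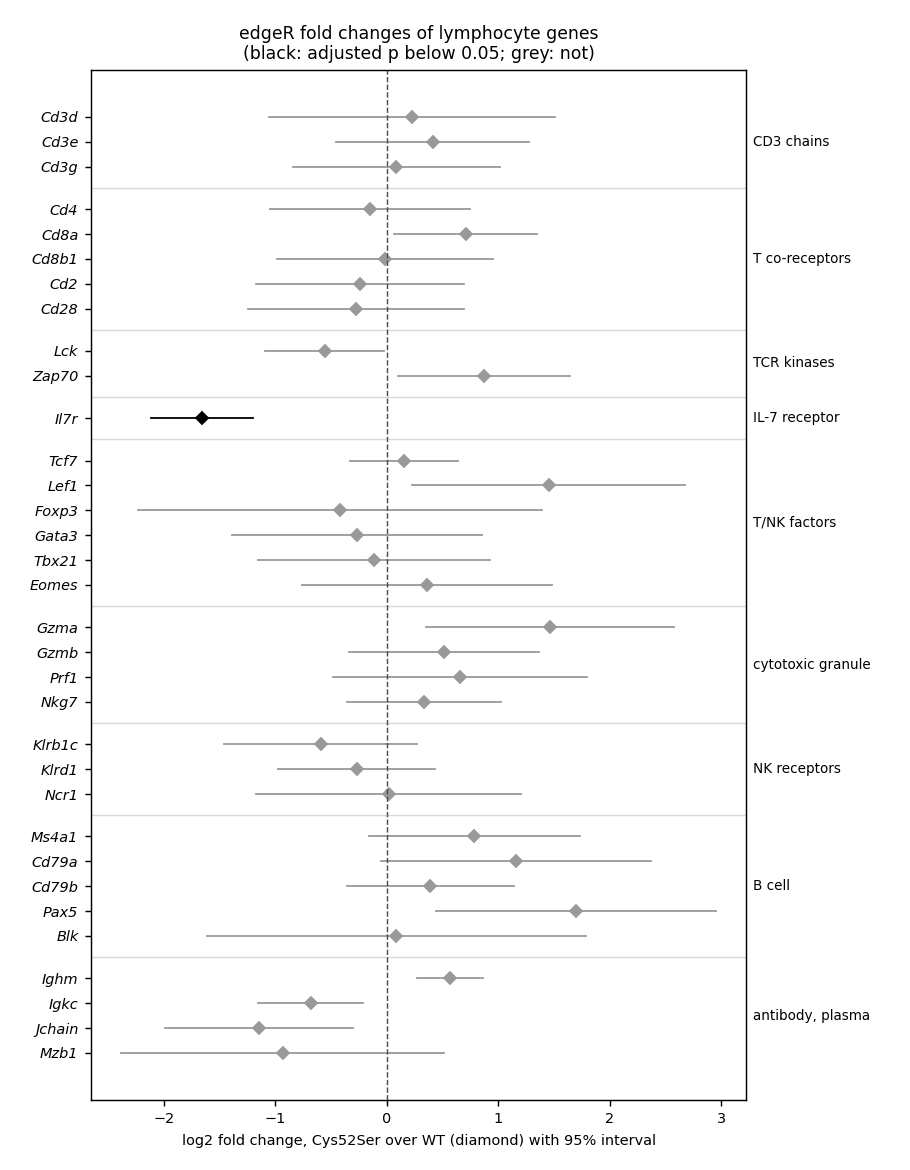
edgeR log2 fold changes (Cys52Ser over WT, diamonds) with 95% intervals for the 33 lymphocyte genes, grouped by role; black marks an adjusted p below 0.05. Il7r at -1.66 is the one black gene, and the intervals of Ighm (0.27 to 0.87) and Jchain (-1.99 to -0.31) lie on opposite sides of 0.

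The 5 B cell genes had positive fold changes, none called, and all 5 were highest in Cys52Ser replicate 1. Cd79a, a signalling chain of the B cell receptor, had 5.09, 1.49 and 1.67 CPM in Cys52Ser livers, against 1.21, 1.18 and 1.2997 CPM in WT livers. Its log2 fold change of 1.16 (edgeR adjusted p = 0.243) was 0.36 without Cys52Ser replicate 1. Cd79b, the partner chain, had 6.24, 3.59 and 2.91 CPM in Cys52Ser livers and 3.40, 3.06 and 3.28 CPM in WT livers, so the other 2 Cys52Ser livers were near the WT range. Ms4a1, encoding the B cell surface protein CD20, had 2.72, 1.44 and 1.51 CPM in Cys52Ser livers, against 1.07, 0.871 and 1.35 CPM in WT livers. Blk, a B cell kinase, had 1.56, 0.350 and 0.325 CPM in Cys52Ser livers, against 0.696, 1.003 and 0.416 CPM in WT livers. Its log2 fold change of 0.09 turned to -1.06 without Cys52Ser replicate 1. Pax5, the factor that keeps B cell identity, varied less among the Cys52Ser livers, at 1.19, 0.920 and 0.746 CPM in Cys52Ser livers, against 0.468, 0.197 and 0.208 CPM in WT livers. Its groups did not overlap on either scale, with 12 to 78 counts per library, a log2 fold change of 1.70 (95% interval 0.44 to 2.96, edgeR adjusted p = 0.118) and 1.50 without Cys52Ser replicate 1. Cys52Ser replicate 1 was also highest for 13 of 21 further B cell genes.

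The antibody and plasma cell genes separated by chain. Ighm, the IgM heavy chain constant gene (GRCm38 chr12:113418558-113422730), had 18.2, 15.4 and 18.7 CPM in Cys52Ser livers, against 12.3, 11.9 and 11.2 CPM in WT livers. The groups did not overlap, with means of 17.5 ± 1.77 CPM in Cys52Ser and 11.8 ± 0.550 CPM in WT (SD, n = 3 each), 1.48-fold higher (log2 0.57, 95% interval 0.27 to 0.87, edgeR adjusted p = 0.0511). It was past the threshold in 4 of 19 alternative settings, the adjusted p ran from 0.0113 to 0.340 over all 19, and its FPKM values overlapped. Igkc, the kappa light chain constant gene (chr6:70726435-70726966), had 10.4, 16.4 and 17.2 CPM in Cys52Ser livers, against 22.2, 26.4 and 22.2 CPM in WT livers (log2 fold change -0.68, 95% interval -1.15 to -0.21, edgeR adjusted p = 0.0984). Jchain, which joins the units of secreted IgM and IgA (chr5:88519809-88527891), had 2.00, 3.74 and 5.49 CPM in Cys52Ser livers, against 7.45, 9.87 and 7.56 CPM in WT livers (log2 fold change -1.15, 95% interval -1.99 to -0.31, edgeR adjusted p = 0.114). Neither overlapped between the genotypes on CPM or FPKM, and Cys52Ser replicate 1 was lowest for both. Each was called in 5 of 19 alternative settings, with the adjusted p over all 19 at 0.0205 to 0.209 for Igkc and 0.0113 to 0.245 for Jchain. Mzb1, a chaperone of antibody assembly, had 0.413, 0.423 and 0.191 CPM in Cys52Ser livers and 0.304, 0.691 and 0.988 CPM in WT livers, with 10 to 57 counts per library. Igkc is wholly overlapped by a long non-coding gene on the same strand, so its counts may include that gene's.

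Within a library, the heavy chain genes can be set against each other without any scaling. Ighm took 60.3%, 42.9% and 44.8% of the FPKM of all heavy chain constant genes in Cys52Ser livers, against 28.1%, 25.6% and 30.9% in WT livers. All Cys52Ser livers were above all WT livers, by 21.1 percentage points on average, with means of 49.3 ± 9.57% in Cys52Ser and 28.2 ± 2.65% in WT (SD, n = 3 each; exact two-sided permutation p = 0.1, or 0.15 adjusted over 3 shares). Without Cys52Ser replicate 1 the difference was 15.6 points. Ighd, the IgD gene of naive B cells, took 22.6%, 7.96% and 6.52% in Cys52Ser livers, against 4.48%, 3.82% and 4.05% in WT livers. The switched genes, Igha and those of IgG, together took 17.0%, 49.2% and 48.7% in Cys52Ser livers, against 67.4%, 70.5% and 65.0% in WT livers. Among them Igha, of IgA, took 8.12%, 23.6% and 23.5% in Cys52Ser livers, against 30.6%, 39.7% and 30.7% in WT livers, and Ighg2c took 4.88%, 12.7% and 15.4% in Cys52Ser livers, against 23.1%, 21.8% and 24.8% in WT livers. In FPKM the switched genes summed to 2.11, 7.96 and 7.88 in Cys52Ser livers, against 16.8, 17.4 and 11.4 in WT livers, without overlap. Ighm plus Ighd summed to 10.3, 8.23 and 8.31 FPKM in Cys52Ser livers and 8.13, 7.26 and 6.15 FPKM in WT livers. Single genes behind these shares were not called, with edgeR adjusted p of 0.130 for Ighd, 0.271 for Igha and 0.185 for Ighg2c. Igkc took 79.3%, 91.0% and 90.7% of light chain constant FPKM in Cys52Ser livers, against 93.3%, 93.0% and 91.1% in WT livers, a difference of -5.47 percentage points (exact two-sided permutation p = 0.1) that was -1.61 without Cys52Ser replicate 1. The heavy chain genes of the IgG class are similar in sequence, so reads may have been split among them.

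**Figure D4:**
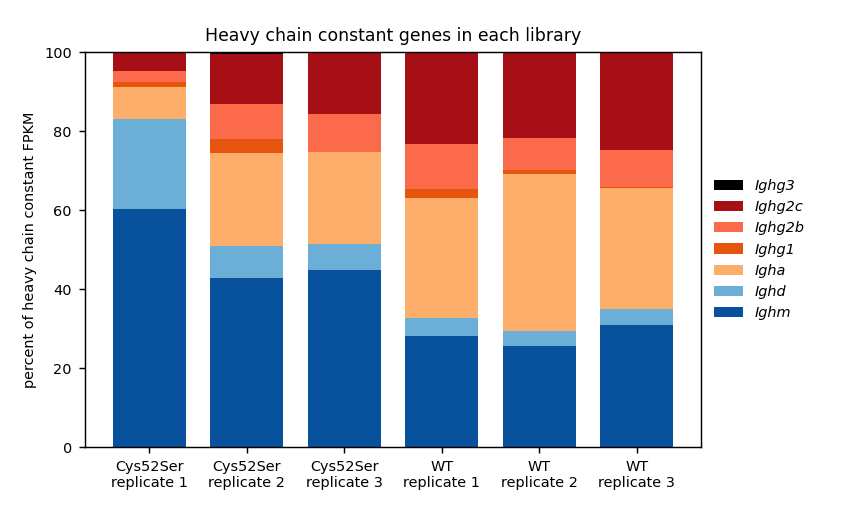
Share of each heavy chain constant gene in the summed FPKM of these genes, 1 stacked bar per library, Cys52Ser left of WT, in percent from 0 to 100. Ighm takes 42.9% to 60.3% in Cys52Ser and 25.6% to 30.9% in WT, and Cys52Ser replicate 1 has the smallest switched share, 17.0%.

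On CPM, 8 members were higher without overlap between the genotypes (Cd8a, Zap70, Lef1, Gzma, Ms4a1, Cd79a, Pax5 and Ighm) and 5 were lower (Lck, Il7r, Klrb1c, Igkc and Jchain). Among all tested genes, 14.4% were higher and 15.2% lower without overlap, 29.7% in all. On the deposited FPKM, 3 members remained higher (Lef1, Gzma and Pax5) and 8 were lower, beside 4.71% higher and 37.7% lower of all tested genes.

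Beyond the members, 119 related genes were tested, of which 4 were called higher and 5 lower, with a median log2 fold change of -0.11. Of all tested genes, edgeR called 2.52% higher and 2.46% lower. In the T cell surface list, 1 of 21 was called, S1pr1, the receptor that guides lymphocytes out of tissues and is also made by endothelium, at 71.7 ± 2.13 CPM in Cys52Ser and 35.8 ± 6.78 CPM in WT (SD, n = 3 each; edgeR adjusted p = 0.020). The most abundant T cell gene after it, Ccl5, was at 14.6, 9.68 and 9.84 CPM in Cys52Ser livers and 6.92, 5.26 and 10.7 CPM in WT livers. None of 16 T cell receptor signalling genes was called by edgeR, while 2 had an unadjusted p below 0.05. With library totals alone 3 were called lower (14.6% of all tested genes). Over the 16 genes, 4 had positive and 12 negative fold changes, with a median of -0.23 on the log2 scale. Fyn had a log2 fold change of 0.10, or -0.25 with library totals, and Vav1 one of -0.27. Of 7 gamma-delta and innate lymphoid genes, 2 were called higher, among them Rora, a nuclear receptor, by 1.51-fold (log2 0.59, edgeR adjusted p = 0.034). Hepatocytes also express Rora. The 5 hepatocyte markers all had positive fold changes, and none was called by edgeR. Their sums were 102152 to 125599 CPM in Cys52Ser livers, against 39605 to 67421 CPM in WT livers. Most of each sum was Alb, with means of 93821 CPM in Cys52Ser and 43147 CPM in WT (edgeR adjusted p = 0.057). Fgb overlapped between the genotypes (log2 0.46). The part of the hepatocyte RNA in the Rora call was not tested.

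Of 17 NK cell genes, Tyrobp, an adaptor that macrophages share, was called lower (log2 -0.80, edgeR adjusted p = 0.043), while Itga1 had a log2 fold change of -0.11. Over the 17 genes, 5 had positive and 12 negative fold changes, with a median of -0.51 on the log2 scale. An unadjusted p below 0.05 was found for 4, beside 22.4% of all tested genes. Of 21 B cell genes, Cd72, a B cell co-receptor, was called lower at 20.5, 20.0 and 23.1 CPM in Cys52Ser livers, against 42.4, 36.9 and 39.1 CPM in WT livers (edgeR adjusted p = 0.017). Ly6d was also called lower, at 20.3, 30.1 and 15.2 CPM in Cys52Ser livers, against 106, 163 and 95.4 CPM in WT livers (edgeR adjusted p = 0.018). In WT livers Ly6d averaged 163 FPKM and Cd72 11.5 FPKM, against 0.839 for Cd79a and 0.174 for Ms4a1. Which cells the Cd72 and Ly6d RNA came from was not tested. Over the 21 genes, 14 had positive and 7 negative fold changes, with a median of 0.13 on the log2 scale, or -0.22 with library totals. Of 14 plasma cell genes none was called by edgeR, 5 had an unadjusted p below 0.05 and 2 were called lower with library totals alone (14.6% of all tested genes), and the most abundant, Xbp1 and Sdc1, which hepatocytes also make, had log2 fold changes of -0.35 and 0.54. Of 15 lymphocyte survival and recruitment signals, Cxcl13, a B cell attractant, was called higher at 3.50, 3.22 and 2.93 CPM in Cys52Ser livers, against 0.202, 0.740 and 0.728 CPM in WT livers (edgeR adjusted p = 0.043). Ltb, a lymphotoxin made by lymphocytes, was 2.54-fold lower (edgeR adjusted p = 0.033), and Cxcl16, which attracts CXCR6+ T and NK T cells, was 1.95-fold lower (edgeR adjusted p = 0.023). Cxcl12, the most abundant signal, had a log2 fold change of 0.07, or -0.30 with library totals. Leaving out 1 library at a time, Cd72 was called in 4 of 6 fits, S1pr1, Ly6d and Cxcl16 in 3 each, Rora, Ltb and Cxcl13 in 1 each and Tyrobp in 0, with no change of sign.

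Markers of other cells moved beside these genes, and their part in the results was not tested. Of 12 macrophage and monocyte markers, 3 were called lower (Lyz2, Trem2 and Gpnmb) and 1 higher (Clec4f). Of all tested genes, edgeR called 2.46% lower and 2.52% higher. Fold changes were positive for 3 of the 12 markers and negative for 9. Their sums were 1378 to 1902 CPM in Cys52Ser livers, against 2471 to 3662 CPM in WT livers. Lyz2 alone averaged 630 CPM in Cys52Ser and 1599 CPM in WT, while Csf1r and Adgre1 overlapped (log2 -0.07 and -0.20). Of 10 dendritic cell markers, 1 was called lower (Itgax), with sums of 209 to 281 CPM in Cys52Ser livers and 226 to 305 CPM in WT livers. Neutrophil, cholangiocyte and mast cell markers gave no edgeR call. Of the 5 cholangiocyte markers, 2 had an unadjusted p below 0.05, Epcam (3.80-fold lower) and Spp1 (3.95-fold lower), and DESeq2 called both (adjusted p = 6.9e-06 and 0.0146). Fold changes were negative for 4 of the 5 and positive for Krt19 (log2 0.55). Krt19 had 7.77, 61.7 and 5.61 CPM in Cys52Ser livers and 25.4, 13.8 and 12.1 CPM in WT livers. Of the stellate cell markers, 3 of 7 were called lower by edgeR (Dcn, Lrat and Lum). Leaving out 1 library at a time, Trem2 and Gpnmb were called in 3 of 6 fits each, Clec4f, Itgax and Lum in 2 each, Dcn and Lrat in 1 each and Lyz2 in 0. Of the neutrophil markers 3 of 6, and of the mast cell and basophil markers 4 of 5, were at 0 counts in some library. Of the 33 members, 13 overlap another annotated gene, 9 of them on the opposite strand, among them Cd3e, Zap70, Lef1, Foxp3, Ms4a1 and Pax5. On the same strand 10 members overlap another gene, among them Tcf7, Klrb1c, Igkc and Mzb1, where strand cannot tell the reads apart. No source used here says if reads were assigned by strand, so reads of the partners may be included in these members' values.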

How the data were processed

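For each gene and library the authors deposited 1 estimated count and 1 FPKM value in a single table, per the file headers. StringTie 1.3.4d, HISAT2 2.0.4, cutadapt 1.9 and UMI-tools are named without roles, with edgeR, DESeq2 and the build mm9, per the submitters' processing notes. The coordinates are GRCm38: of the 28524 genes whose identifiers are in GENCODE M21, 89.9% match it exactly. The deposited counts are whole numbers but follow coverage-based estimates: 89.9% to 92.4% of well-covered single-transcript genes per library were FPKM times length, to within 1%, up to a constant. They needed no rounding. The design assumed plain counts and was kept.

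Groups came from the genotype labels. edgeR 4.0.16 (R 4.3.3; filterByExpr with a minimum count of 10, TMM, robust quasi-likelihood, genotype alone, common biological coefficient of variation 0.358) was fitted to all genes and checked on simulated counts. Intervals are 95%. The shares of FPKM used exact permutation tests in scipy 1.17.1. Alternatives were other scalings and filters, DESeq2 1.42.0, limma 3.58.1 on log2(FPKM + 0.1, 0.5 or 1), a replicate block, leaving out each library and, added after seeing the data, limma on TMM-rescaled FPKM.

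Named genes are all members, called genes and the 2 most abundant of each related list, and Prdx1; others named were chosen after their values were seen. A called gene that the rule takes is not reported here by name, though it stays in the counts. The members and lists were chosen with earlier results of these data known. No 2 libraries of 1 genotype agreed within sampling noise (chi-square per degree of freedom at least 86.9). The labels name separate mice, 3 per genotype.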

Additional observations from a re-analysis of the deposited data

How the results depend on the processing

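With DESeq2, 2 members were called higher, and 1 each with RLE factors, upper quartile factors and a mean CPM of at least 1, against 0 by edgeR with TMM. Among all tested genes, DESeq2 called 8.04% higher, RLE factors 514 of 18648, upper quartile factors 482 of 18648 and the CPM filter 602 of 14661. Members called lower numbered 3 with DESeq2, 3 with library totals alone, 4 in limma on log2(FPKM + 0.1) and 3 each with + 0.5 and + 1, against 1, and 0 to 1 when single libraries were left out. Among all tested genes, 7.21% were called lower with DESeq2 and 14.6% with library totals. In limma 2523, 2411 and 2330 of 18573 genes were called lower with + 0.1, + 0.5 and + 1. Over all genes, 928 calls became 2493 with DESeq2, 3017 with library totals (293 higher and 2724 lower, against 469 and 459), 2839, 2723 and 2645 in limma with + 0.1, + 0.5 and + 1, and 28 to 790 without single libraries, lowest without Cys52Ser replicate 3 (28), Cys52Ser replicate 1 (31) and WT replicate 2 (57); the other removals gave 409, 504 and 790. The cause was not tested. Same-numbered deviations from the genotype means correlated at -0.02, 0.15 and 0.06 for replicates 1, 2 and 3. The largest correlation of each Cys52Ser library with a WT library of another number was 0.17, 0.03 and -0.02. With 3 mice per genotype, these values cannot decide if replicate numbers paired the mice. A fit with the replicate block called 729 genes (426 higher, 303 lower).

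Members whose log2 fold change turned sign were all uncalled. With library totals these were Cd3d (-0.16), Cd3g (-0.24), Tcf7 (-0.21), Nkg7 (-0.015), Ncr1 (-0.32) and Blk (-0.28). In limma with + 0.1 they were Cd3g (-0.25), Tcf7 (-0.18), Nkg7 (-0.029), Ncr1 (-0.28), Cd79b (-0.034) and Blk (-0.33). With + 0.5, filtered or not, they were Cd3d (-0.022), Cd3g (-0.14), Tcf7 (-0.16), Nkg7 (-0.024), Ncr1 (-0.14), Cd79b (-0.020) and Blk (-0.12). With + 1 they were Cd3d (-0.027), Cd3g (-0.094), Tcf7 (-0.14), Nkg7 (-0.020), Ncr1 (-0.083), Cd79b (-0.011) and Blk (-0.064). On TMM-rescaled FPKM they were Cd8b1 (0.017), Ncr1 (-0.0056) and Blk (-0.0090), with the replicate block Cd8b1 (0.047), Ncr1 (-0.022) and Blk (-0.22), and with upper quartile factors Ncr1 (-0.021). Without single libraries the ranges were -0.12 to 0.89 for Cd3d, -0.22 to 0.34 for Cd3g, -0.42 to 0.0085 for Cd4, -0.34 to 0.25 for Cd8b1, -0.43 to 9.9e-05 for Cd2, -0.031 to 0.30 for Tcf7, -1.06 to 0.26 for Foxp3, -0.34 to 0.020 for Tbx21, -0.37 to 0.22 for Ncr1 and -1.06 to 0.44 for Blk. All 3 within-library shares kept their direction in every alternative run. With 3 mice per genotype, genes under 100 counts have wide intervals.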

Other observations

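The variable segments of the antibody genes, each carried by the B or plasma cells that chose it, were led by different segments in the genotypes. Summed over 81 heavy chain segments, counts were 239, 280 and 373 in Cys52Ser livers, against 465, 428 and 361 in WT livers. Ighv1-81 led in all 3 WT livers and in none of the Cys52Ser livers. It took 0%, 4.29% and 1.61% of the heavy chain segment counts in Cys52Ser livers (95% Wilson intervals 0 to 1.58, 2.47 to 7.34 and 0.739 to 3.46), against 12.04%, 16.6% and 14.7% in WT livers (9.39 to 15.3, 13.4 to 20.4 and 11.4 to 18.7). Its log2 fold change was not called (edgeR adjusted p = 0.135). The Cys52Ser livers were led by Ighv1-18, Ighv14-2 and Ighv1-64, at 7.11%, 9.29% and 8.58%.

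Among 77 kappa segments, with 475, 454 and 699 counts in Cys52Ser livers and 869, 872 and 800 in WT livers, Igkv1-110 led in all 3 WT livers, while the Cys52Ser livers were led by Igkv1-117 (6.74%), Igkv6-23 (12.996%) and Igkv6-23 (7.73%). Igkv1-110 took 4.63%, 1.98% and 4.58% in Cys52Ser livers (intervals 3.08 to 6.91, 1.05 to 3.72 and 3.26 to 6.39), against 21.2%, 15.5% and 22.6% in WT livers (18.6 to 24.0, 13.2 to 18.0 and 19.9 to 25.7). Its log2 fold change was -2.78 (edgeR adjusted p = 0.0363). Leaving out 1 library at a time, it was called in 1 of 6 fits, without Cys52Ser replicate 2, and the adjusted p ran from 0.0491 to 0.121. Both segments were singled out after their values were seen. Variable segments are near-identical families among which counting can split or merge reads. The intervals treat the deposited counts, which follow coverage-based estimates, as independent reads, and they do not cover differences between mice.

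T cell receptor segments were counted at 56, 24 and 34 for alpha chains in Cys52Ser livers, against 35, 43 and 45 in WT livers, and at 96, 73 and 71 for beta chains in Cys52Ser livers, against 89, 66 and 55 in WT livers.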
